A study of Mus musculus with 12 samples.

Results

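The scavenger receptor genes *Marco*, *Msr1*, *Cd36*, *Scarb1*, *Scarb2*, *Cd163*, *Stab1*, *Olr1*, *Colec12* and *Cd68* were examined in bone marrow-derived macrophages (BMDMs), which are macrophages grown in culture from bone marrow. They are 10 of the 48526 genes in the count table, found by matching each Ensembl identifier to its mouse symbol. Marrow came from C57Bl/6J female mice, with no altered gene named in the labels. The methods give an age of 6 to 20 weeks. Cells were grown with 10 ng/mL mCSF to day 7, in all groups alike. Cells of each of 3 mice were then left untreated or received Wnt3a (100 ng/mL), IL-4 (100 pg/mL) or both proteins for 16 hr, giving 12 samples. IL-4 is a cytokine that turns macrophages toward tissue repair, and Wnt3a is a secreted activator of the Wnt pathway. BMDMs are a culture model and carry no signals from a tissue. Within a mouse, the Wnt3a and the Wnt3a+IL-4 columns share reads. In 0 of 48526 genes did the Wnt3a count fall below the Wnt3a+IL-4 count or exceed it by more than the same amount again, whereas 6681 to 8625 genes did so when columns of different mice were paired. The columns were therefore resolved within each mouse into the difference (Wnt3a column minus Wnt3a+IL-4 column) and the remainder (Wnt3a+IL-4 column minus the difference). Both columns are labelled as Wnt3a-treated, and the labels do not tell which of the parts holds the cells that also received IL-4. Untreated, IL-4, difference and remainder libraries held 13342492 to 17453377 counts.

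Scavenger receptors are cell surface or lysosomal proteins that bind modified lipoproteins, bacteria, dying cells and other altered material, mostly through patches of charge, and deliver it for breakdown. They belong to several unrelated protein classes that were grouped by what they bind. In macrophages of the artery wall they are known for the uptake of oxidized low-density lipoprotein that gives rise to foam cells, while *Cd163* takes up haemoglobin bound to haptoglobin and *Scarb1* exchanges cholesterol with high-density lipoprotein.

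In untreated BMDMs, the levels of these genes covered a wide range when divided by the length of their exons. Values are CPM (counts scaled to a common library total after TMM normalization) per kilobase, as mean ± SD of 3 mice. *Cd68*, a heavily glycosylated late endosomal protein used as a macrophage marker, had the highest level at 1465 ± 167 and made up 82.3% ± 1.49 (SD, n = 3) of the summed level of the 10 genes. *Stab1*, which encodes the acetylated lipoprotein receptor stabilin-1, followed at 168 ± 19.4, and *Scarb2*, a lysosomal membrane protein that carries glucocerebrosidase, at 60.1 ± 2.54. *Cd36*, the receptor for oxidized lipoprotein and long-chain fatty acids, stood at 37.7 ± 8.21. *Scarb1* (19.99 ± 2.69) and *Msr1* (15.8 ± 3.10) were neighbours in this order whose libraries overlapped, and in every other pair of neighbours the libraries stood apart. *Marco* (6.32 ± 0.29), *Colec12* (3.18 ± 0.44) and *Cd163* (1.81 ± 0.44) were low, and *Olr1* had 2 counts in all 3 untreated libraries together.

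This order was different in the treated groups. With IL-4, *Cd36* (91.4 ± 8.30 CPM per kilobase) stood above *Scarb2* (55.4 ± 1.70), and neighbours overlapped in the pairs *Scarb1* (20.2 ± 1.11) and *Msr1* (18.6 ± 1.99), and *Marco* (2.09 ± 0.34) and *Cd163* (1.99 ± 0.18). In the difference, *Msr1* (26.5 ± 5.88), *Cd36* (21.2 ± 3.31) and *Marco* (20.4 ± 2.64) overlapped with each other, and in the remainder *Scarb1* (12.7 ± 1.5) and *Marco* (11.6 ± 1.32) did. *Cd68*, *Stab1* and *Olr1* kept the first, the second and the last place by mean level in all 4 groups.

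**Figure D1:**
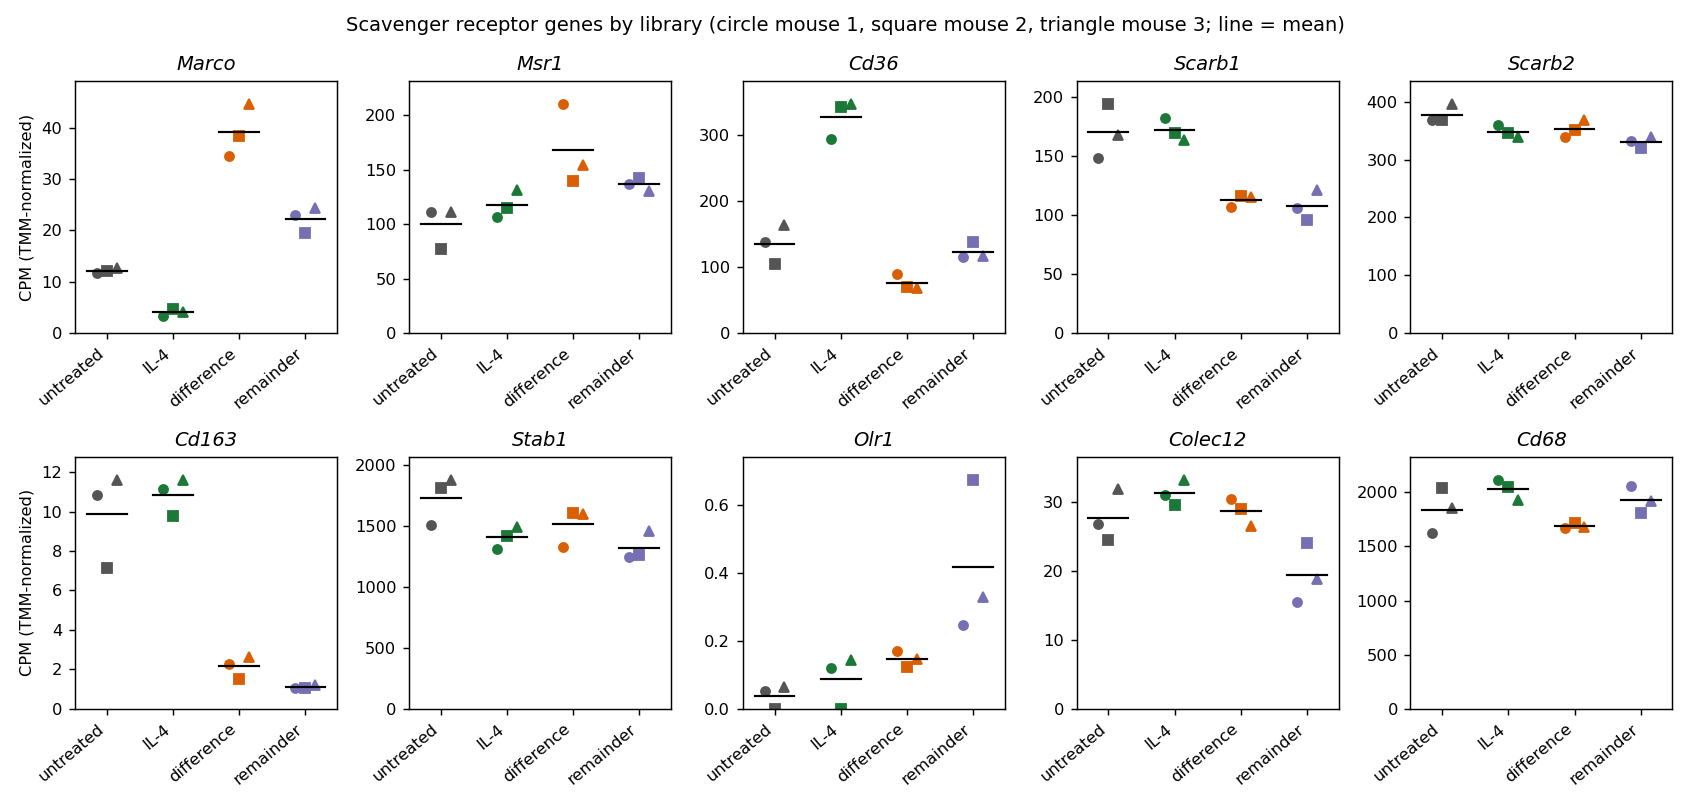
TMM-normalized CPM (vertical axes, from 0) of the 10 scavenger receptor genes in the untreated, IL-4, difference and remainder libraries, with a circle for mouse 1, a square for mouse 2, a triangle for mouse 3 and a line for the mean. *Marco* lies at 3.36 to 4.67 CPM with IL-4 and at 34.6 to 44.6 in the difference, while *Cd36* lies highest with IL-4 and *Cd163* is low in both Wnt3a-derived groups.

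Of the 10 genes, 9 had at least 10 counts in at least 3 libraries and were tested, and *Olr1* was not. Against untreated cells, IL-4 raised *Cd36* and lowered *Marco*, so 2 of 9 were called (adjusted p under 0.05 over 12421 genes in the quasi-likelihood test of edgeR), against 3.4% of all tested genes. In the difference, *Marco* and *Msr1* rose and *Cd36*, *Scarb1* and *Cd163* fell, 5 of 9 against 23.2%. In the remainder, *Marco* and *Msr1* rose and *Scarb1*, *Cd163*, *Colec12* and *Stab1* fell, 6 of 9 against 25.3%. These contrasts took part in the choice of the genes, so nothing is read from these shares. The median log2 fold change of the 9 genes was 0.13 with IL-4, -0.12 in the difference and -0.19 in the remainder, where the medians of all tested genes were -0.00, -0.01 and -0.02. Libraries of the compared groups did not overlap for 4 of 9 genes with IL-4, 5 of 9 in the difference and 7 of 9 in the remainder, against 19.8%, 39.2% and 35.6% of all tested genes. *Marco* and *Msr1* rose and *Scarb1* and *Cd163* fell in both parts, which share the untreated libraries as controls. *Scarb2* and *Cd68* were called in none of the 6 pairwise comparisons by this test. Both were close to the threshold in 1 comparison each, *Scarb2* in the remainder against untreated cells and *Cd68* in the difference against IL-4. There both were called lower by DESeq2, by scaling to library totals, with a filter of 1 CPM in 3 libraries and in the deposited columns. *Cd68* was also called with only the groups compared and in 3 of 15 fits that left out a mouse or a library, and *Scarb2* in 1 of 15. Library totals further called both lower in the difference than in untreated cells. In bulk RNA, fewer cells that make a transcript and less of it per cell cannot be told apart.

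**Figure D2:**
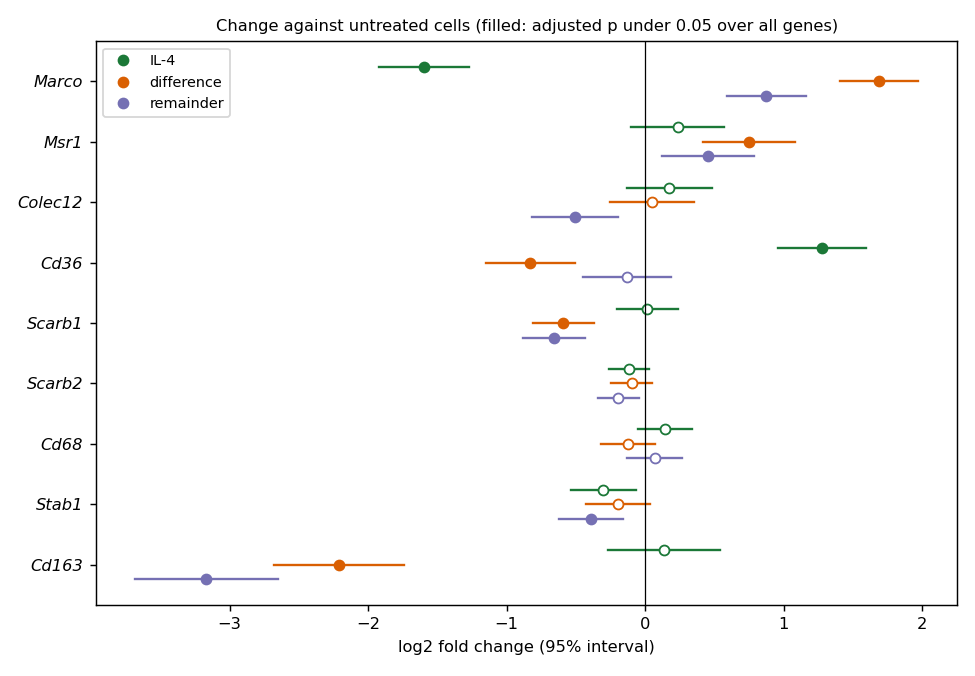
Log2 fold change (horizontal axis, with 95% interval) of the 9 tested genes against untreated cells for IL-4, difference and remainder, 3 mice each, filled where the adjusted p was under 0.05. *Marco* lies at -1.60 with IL-4 and at 1.69 in the difference, *Cd36* at 1.28 and -0.83, and *Cd163* at 0.13 with IL-4 and -3.17 in the remainder.

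*Marco* (ENSMUSG00000026390, chromosome 1 from 120474538 to 120505024 of mm10, minus strand) encodes a class A receptor with a collagen-like stalk that binds bacteria and unopsonized particles. It had 216, 189 and 203 counts in the untreated libraries of mice 1, 2 and 3, and 56, 73 and 56 with IL-4. The difference had 604, 629 and 614 counts and the remainder 369, 317 and 372. The 4 groups did not overlap with each other in CPM, in the order IL-4, untreated, remainder, difference. Means were 4.02 ± 0.65, 12.2 ± 0.56, 22.3 ± 2.54 and 39.2 ± 5.08 CPM (SD, n = 3). IL-4 lowered *Marco* 3.03-fold (log2 fold change -1.60, standard error 0.15, adjusted p = 2.9e-05), which was rank 15 from the lowest of the 12421 genes. In the difference it rose 3.22-fold (log2 1.69, standard error 0.13, adjusted p = 5.4e-07) and in the remainder 1.83-fold (log2 0.87, standard error 0.13, adjusted p = 2.2e-04). The remainder was lower than the difference (log2 -0.81, standard error 0.13, adjusted p = 0.0017), and this call was lost without mouse 3 (adjusted p = 0.12).

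The bases just before the annotated starts of *Marco*, *Cd36* and *Cd163* are shown because these 3 genes had the widest ranges of group means, 3.25, 2.11 and 3.17 on the log2 CPM scale. The sequences are from RefSeq on GRCm38.p6, 250 bases each, 5′ to 3′ on the strand of the gene, ending at the base before the start. *Marco* covers chr1:120505025-120505274 (minus), *Cd36* chr5:17835897-17836146 (minus) and *Cd163* chr6:124304401-124304650 (plus). Capitals mark matches to the letters searched.
Marco: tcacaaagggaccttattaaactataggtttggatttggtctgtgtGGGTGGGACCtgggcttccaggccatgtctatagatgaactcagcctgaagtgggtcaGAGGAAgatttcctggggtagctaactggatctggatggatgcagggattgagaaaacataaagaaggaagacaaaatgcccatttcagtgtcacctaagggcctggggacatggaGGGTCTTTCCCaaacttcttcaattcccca
Cd36: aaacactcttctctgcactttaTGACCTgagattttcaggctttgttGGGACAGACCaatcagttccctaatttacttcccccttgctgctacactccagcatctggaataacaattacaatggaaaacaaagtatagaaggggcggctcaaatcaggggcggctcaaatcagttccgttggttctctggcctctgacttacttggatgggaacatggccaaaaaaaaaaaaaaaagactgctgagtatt
Cd163: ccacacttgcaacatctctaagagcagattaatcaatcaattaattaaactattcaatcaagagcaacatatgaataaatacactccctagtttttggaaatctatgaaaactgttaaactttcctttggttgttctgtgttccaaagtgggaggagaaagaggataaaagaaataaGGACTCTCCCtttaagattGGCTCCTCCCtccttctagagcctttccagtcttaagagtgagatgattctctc

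The letters were searched on both strands. GGGNNNNNCC, the NF-κB type, was found at -204, -30 and -29 of *Marco* (the last pair overlapping), at -203 of *Cd36* and at -73 and -54 of *Cd163*, where positions give the first base counted back from the start. It occurs in 45.8% of the 32851 promoters of the same length. GAGGAA, the core bound by Spi1, was found at -146 of *Marco* and is in 23.3% of promoters. AGGTCA, the core of many nuclear receptor sites, was found on the reverse strand at -228 of *Cd36* as TGACCT and is in 14.0% of promoters. TTCNNNNGAA, the STAT6 type with the wider spacer, is in 5.85% of promoters, TTCNNNGAA of other STAT proteins in 7.02%, TCAAAG of TCF and LEF proteins in 13.8% and TGANTCA of AP-1 in 6.75%, and these letters are not in the 3 windows shown. The RefSeq start of *Cd36* lies 179 bases from the nearest and 52905 bases from the outermost transcript start of the GENCODE annotation, and those of *Marco* and *Cd163* lie 0 and 5 bases away. Entries were matched for 7 of the 10 genes, without *Msr1*, *Scarb1* and *Colec12*.

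*Msr1* (ENSMUSG00000025044, chromosome 8 from 39581685 to 39642673), the class A receptor for acetylated and oxidized lipoprotein, had 111, 77.3 and 112 CPM in the untreated libraries of mice 1, 2 and 3 and 107, 115 and 132 with IL-4. It had 211, 140 and 155 CPM in the difference and 137, 142 and 130 in the remainder. Untreated libraries lay below all libraries of the difference and of the remainder and overlapped with those of IL-4, and the difference of mouse 1 was the highest of the 12. *Msr1* rose in the difference (log2 0.75, standard error 0.15, adjusted p = 0.0028). Its rise in the remainder was smaller and close to the threshold (log2 0.45, standard error 0.15, adjusted p = 0.047). That call was lost in 11 of 15 fits that left out a mouse or a library, with log2 values from 0.28 to 0.57, for example without the untreated library of mouse 2 (log2 0.30, adjusted p = 0.14), and under library totals (log2 0.34, adjusted p = 0.17). With IL-4 its log2 fold change was 0.23 (95% interval -0.10 to 0.57, adjusted p = 0.56).

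*Colec12* (ENSMUSG00000036103, chromosome 18 from 9707595 to 9882644, plus strand), a class A receptor with a lectin domain, had 498, 381 and 509 counts in the untreated libraries and 518, 463 and 461 with IL-4. The difference had 531, 476 and 365 counts and the remainder 250, 391 and 287. The remainder was lowest, at 15.5 to 24.0 CPM, and overlapped with none of the other groups, while the other 3 groups overlapped with each other at 24.5 to 33.3 CPM. The gene fell in the remainder against untreated cells (log2 -0.51, standard error 0.14, adjusted p = 0.019), and this call was lost without mouse 1, without mouse 3, without the untreated library of mouse 3 and without the remainder of mouse 1 or of mouse 3 (log2 -0.36 to -0.49, adjusted p 0.065 to 0.30). Against the difference the remainder was lower as well (log2 -0.56, standard error 0.15, adjusted p = 0.040), but not with the mouse as a block (log2 -0.57, adjusted p = 0.066) or in 10 of 15 fits that left out a mouse or a library. Against IL-4 its log2 fold change was -0.68 (adjusted p = 0.0036, and 0.11 without mouse 3). Other genes, *Ccdc82* above all, contain 4.33% of the 50-base stretches of *Colec12* transcripts, so its counts are uncertain to that extent.

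Among the class B receptors, which cross the membrane at both ends of the protein, *Cd36* (ENSMUSG00000002944, chromosome 5 from 17781690 to 17888801) changed most. It had 2569, 1627 and 2606 counts in the untreated libraries, 4900, 5361 and 4817 with IL-4, 1570, 1146 and 945 in the difference and 1847, 2256 and 1787 in the remainder. IL-4 libraries were above all others and those of the difference below all others in CPM, while untreated and remainder libraries overlapped. Means were 135 ± 29.5 CPM in untreated cells, 328 ± 29.8 with IL-4, 76.2 ± 11.9 in the difference and 124 ± 13.1 in the remainder (SD, n = 3). *Cd36* rose 2.42-fold with IL-4 (log2 1.28, standard error 0.15, adjusted p = 1.6e-04). It fell in the difference (log2 -0.83, standard error 0.15, adjusted p = 0.0010), and without mouse 3 that call was lost (log2 -0.60, adjusted p = 0.073). In the remainder its log2 fold change was -0.13 (95% interval -0.45 to 0.18, adjusted p = 0.55). The remainder was higher than the difference (log2 0.70, standard error 0.15, adjusted p = 0.014), and this call was lost without mouse 3 or the difference of mouse 2 or of mouse 3 (log2 0.63 to 0.67, adjusted p 0.071 to 0.20).

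*Scarb1* (ENSMUSG00000037936, chromosome 5 from 125277087 to 125341094) had 148, 194 and 168 CPM in the untreated libraries and 182, 169 and 163 with IL-4. It had 107, 116 and 115 CPM in the difference and 106, 95.6 and 121 in the remainder. All 6 libraries of the difference and the remainder lay below all 6 others. *Scarb1* fell 1.51-fold in the difference (log2 -0.59, standard error 0.10, adjusted p = 8.7e-04) and 1.58-fold in the remainder (log2 -0.66, standard error 0.10, adjusted p = 3.0e-04). Between remainder and difference the log2 value was -0.07 (95% interval -0.29 to 0.16), and with IL-4 it was 0.01 (95% interval -0.21 to 0.24).

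*Scarb2* (ENSMUSG00000029426, chromosome 5 from 92441314 to 92506833) had the narrowest range of the 9 tested genes, 0.19 between the highest and the lowest group mean on the log2 scale. Its libraries had 368 to 396 CPM in untreated cells, 339 to 360 with IL-4, 339 to 369 in the difference and 320.1 to 339 in the remainder. The untreated libraries were above those of the remainder in all 3 mice, but the log2 fold change of -0.19 (95% interval -0.34 to -0.05) had an adjusted p of 0.050, just above the threshold.

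*Cd163* (ENSMUSG00000008845, chromosome 6 from 124304656 to 124330527, plus strand), the receptor for the haptoglobin-haemoglobin complex, was the gene with the largest fall. It had 202, 111 and 185 counts in the untreated libraries and 186, 153 and 161 with IL-4. In the difference 40, 25 and 36 counts were left, and in the remainder 17, 17 and 18. Untreated and IL-4 libraries overlapped, those of the difference lay below both, and those of the remainder lay below the difference. Means were 9.87 ± 2.39, 10.8 ± 0.96, 2.14 ± 0.56 and 1.09 ± 0.08 CPM (SD, n = 3). *Cd163* fell 4.62-fold in the difference (log2 -2.21, standard error 0.22, adjusted p = 5.1e-06) and 8.98-fold in the remainder (log2 -3.17, standard error 0.24, adjusted p = 3.2e-07), which was rank 13 from the lowest of the 12421 genes. The remainder was lower than the difference in 3 of 3 mice, at a log2 value of -0.96 (standard error 0.27) and an adjusted p of 0.061. With the mouse as a block the same comparison was called (log2 -0.95, adjusted p = 0.025), and DESeq2 called it too (log2 -0.97, adjusted p = 0.036). With IL-4 alone the log2 value was 0.13 (95% interval -0.27 to 0.54).

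*Stab1* (ENSMUSG00000042286, chromosome 14 from 31139013 to 31168641) had 1502, 1808 and 1876 CPM in the untreated libraries, 1311, 1414 and 1484 with IL-4, 1328, 1606 and 1598 in the difference and 1242, 1258 and 1452 in the remainder. Within each mouse all 3 treated libraries were below the untreated library. The fall was called in the remainder (log2 -0.39, standard error 0.11, adjusted p = 0.015), but not without mouse 2, mouse 3, the untreated library of mouse 3 or the remainder of mouse 1 (log2 -0.32 to -0.40, adjusted p 0.067 to 0.12). With IL-4 the log2 value was -0.30 (95% interval -0.53 to -0.07, adjusted p = 0.18), and in the difference it was -0.19 (95% interval -0.43 to 0.04). Of its exon bases, 1.09% overlap *Nt5dc2* on the other strand.

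*Cd68* (ENSMUSG00000018774, chromosome 11 from 69664213 to 69666153) ranged from 1625 to 2117 CPM over the 12 libraries. Its log2 fold changes against untreated cells were 0.14 with IL-4 (95% interval -0.05 to 0.34), -0.12 in the difference (-0.32 to 0.07) and 0.07 in the remainder (-0.13 to 0.26). The difference was lower than IL-4 in 3 of 3 mice, with a log2 value of -0.27 and an adjusted p of 0.055.

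*Olr1* (ENSMUSG00000030162, chromosome 6 from 129485244 to 129507165), which encodes the lectin-like receptor LOX-1 for oxidized lipoprotein, had 1, 0 and 1 counts in the untreated libraries, 2, 0 and 2 with IL-4, 3, 2 and 2 in the difference and 4, 11 and 5 in the remainder. Summed over the 3 mice and set against library size, the remainder had 9.76 times the level of untreated cells (exact 95% interval 2.37 to 86.1) and 2.82 times that of the difference (1.15 to 7.89). These intervals cover counting error only.

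Directly compared, the remainder and the difference differed in 3 of the 9 tested genes (*Cd36* higher, *Marco* and *Colec12* lower), against 5.25% of all tested genes. Their libraries stood apart for 5 of the 9 tested genes, against 22.4% of all tested genes, and also for the untested *Olr1*. Against IL-4 alone, 5 of 9 were called in the difference (*Marco* and *Msr1* higher, *Cd36*, *Cd163* and *Scarb1* lower) and 5 of 9 in the remainder (*Marco* higher, *Cd36*, *Cd163*, *Scarb1* and *Colec12* lower), each against 20.3%. Libraries did not overlap with those of IL-4 for 6 of 9 genes in the difference and 5 of 9 in the remainder, against 38.6% and 35.9%. The largest values were those of *Marco*, with log2 3.28 in the difference (adjusted p = 2.6e-09) and 2.47 in the remainder (adjusted p = 7.0e-08), and of *Cd163*, with -2.34 (adjusted p = 2.4e-06) and -3.30 (adjusted p = 3.1e-07). *Cd36* was lower than with IL-4 by log2 -2.10 in the difference (adjusted p = 2.6e-07) and -1.41 in the remainder (adjusted p = 1.0e-05). *Msr1* was called in the difference against IL-4 (log2 0.52, adjusted p = 0.028), and 5 of 15 fits that left out a mouse or a library lost this call (log2 0.25 to 0.68).

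**Figure D3:**
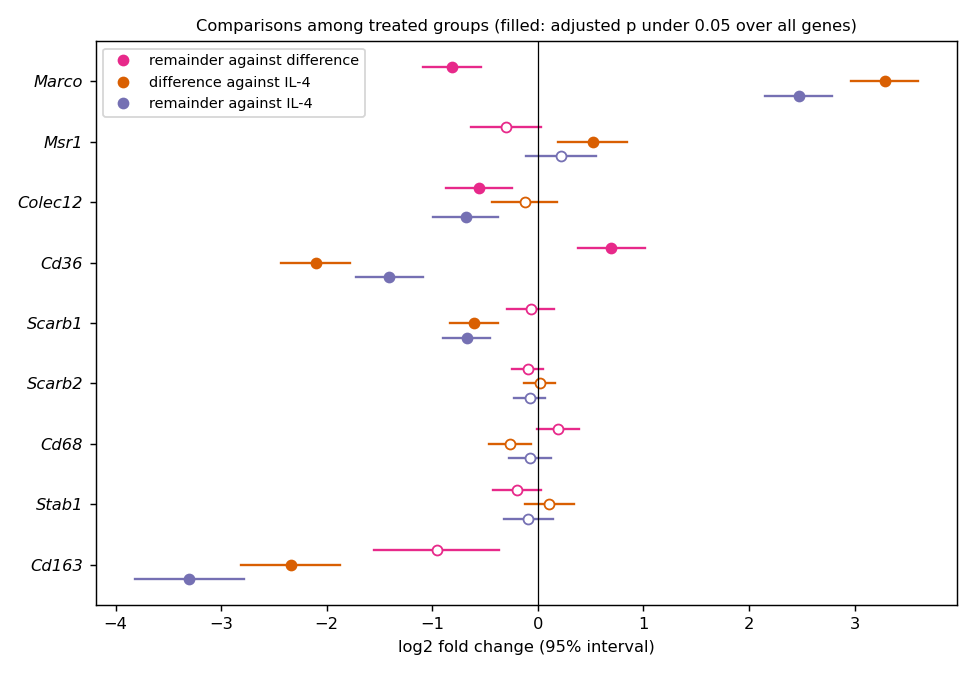
Log2 fold change (horizontal axis, with 95% interval) of the 9 tested genes for the remainder against the difference and for each of these against IL-4, 3 mice each, filled where the adjusted p was under 0.05. *Marco* lies at 3.28 and 2.47 against IL-4 and at -0.81 between remainder and difference, whereas *Cd36* lies at -2.10, -1.41 and 0.70.

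*Cd36* and *Marco* were ordered in opposite ways over the 4 groups. The number of *Cd36* counts per *Marco* count needs no scaling between libraries. It was 11.9, 8.61 and 12.8 in the untreated libraries of mice 1, 2 and 3, 87.5, 73.4 and 86.0 with IL-4, 2.6, 1.82 and 1.54 in the difference and 5.01, 7.12 and 4.80 in the remainder. The 4 groups did not overlap in this ratio. Both genes took part in the choice of the 10, so the ratio describes these libraries and was not tested.

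**Figure D4:**
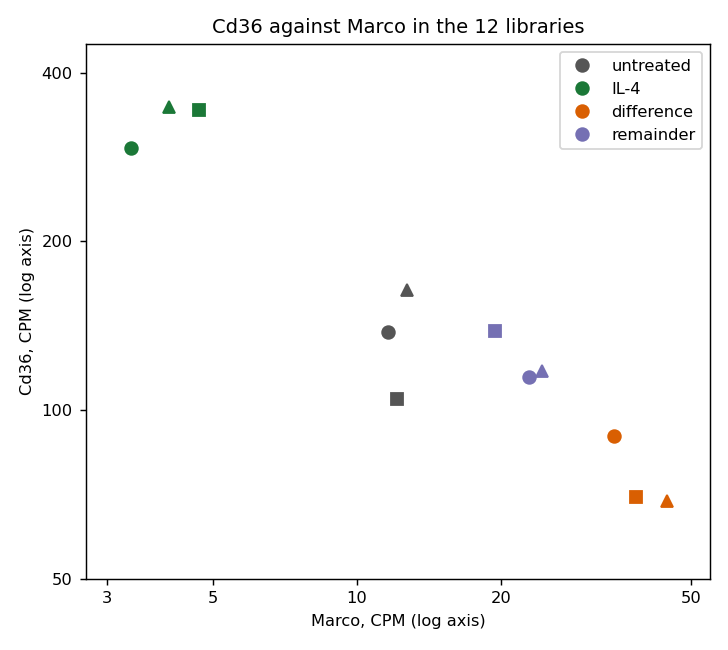
*Cd36* (vertical) against *Marco* (horizontal) in the 12 libraries, both in TMM-normalized CPM on log axes, with colours for the groups, a circle for mouse 1, a square for mouse 2 and a triangle for mouse 3. IL-4 libraries sit at the upper left (*Cd36* 294 to 348 CPM) and libraries of the difference at the lower right (*Cd36* 68.7 to 89.9 CPM).

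Whether the IL-4 effect depended on Wnt3a was tested as an interaction under both assignments of the parts. The same groups took part in the choice of the genes, so the calls only describe these libraries. With the remainder taken as Wnt3a+IL-4, 0 of 9 genes were called, against 0.105% of all tested genes (13 genes, with 1576 at an unadjusted p under 0.05). *Marco* had a log2 value of 0.78 (adjusted p = 0.15), *Colec12* -0.73 (adjusted p = 0.18), *Cd36* -0.58 (adjusted p = 0.28) and *Cd163* -1.09 (adjusted p = 0.22), and DESeq2 called *Marco* (adjusted p = 0.044) and *Colec12* (adjusted p = 0.048). The same edgeR test without a count filter called these 4 and *Msr1*, with adjusted p-values of 0.013 for *Marco* and 0.0039 for *Cd36*. It called 575 of 23413 genes in all, against 13 with the filter. With the difference taken as Wnt3a+IL-4, 2 of 9 were called, against 7.33%. These were *Marco* (log2 2.41, standard error 0.20, adjusted p = 2.6e-06) and *Cd36* (log2 -1.97, standard error 0.21, adjusted p = 3.1e-05). *Stab1* had a log2 value of 0.50 (adjusted p = 0.066) and was called with the mouse as a block (0.49, adjusted p = 0.026). In the deposited columns as labelled, edgeR gave 1.48 for *Marco* (adjusted p = 8.9e-04) and -1.15 for *Cd36* (adjusted p = 0.0068). Each Wnt3a-containing column holds reads of both parts, so the contrast between these columns is drawn toward 0. The values lie near the IL-4 effects (log2 -1.60 and 1.28) with the sign reversed, so they are no separate support.

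Genes for other scavenger receptors were counted from a list of 20, of which 14 were tested. IL-4 raised 3 and lowered 1 of the 14. The mannose receptor gene *Mrc1* rose by log2 2.14 (adjusted p = 2.6e-05) and *Clec7a*, which encodes the β-glucan receptor dectin-1, by 1.39 (adjusted p = 4.5e-05), while *Cd14* fell by 0.51 (adjusted p = 0.0017). Both parts had 4 genes lower than untreated cells, with 4 higher in the difference and 6 higher in the remainder. *Lgals3bp* (log2 1.82 and 2.01) and *Ssc5d* (2.51 and 3.65) were higher in the difference and the remainder, and *Cd5l*, a secreted protein with scavenger receptor domains, was lower (-2.28 and -1.84). *Cd209a* had 24, 20 and 11 counts in the untreated libraries and 0 in the difference. Between the remainder and the difference, *Mrc1* (log2 2.33, adjusted p = 1.4e-05) and *Clec7a* (1.12, adjusted p = 2.6e-04) were higher and *Cd14* lower (-0.57, adjusted p = 5.8e-04). *Cd36*, *Mrc1* and *Clec7a* were all higher with IL-4 than in untreated cells and higher in the remainder than in the difference.

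**Figure D5:**
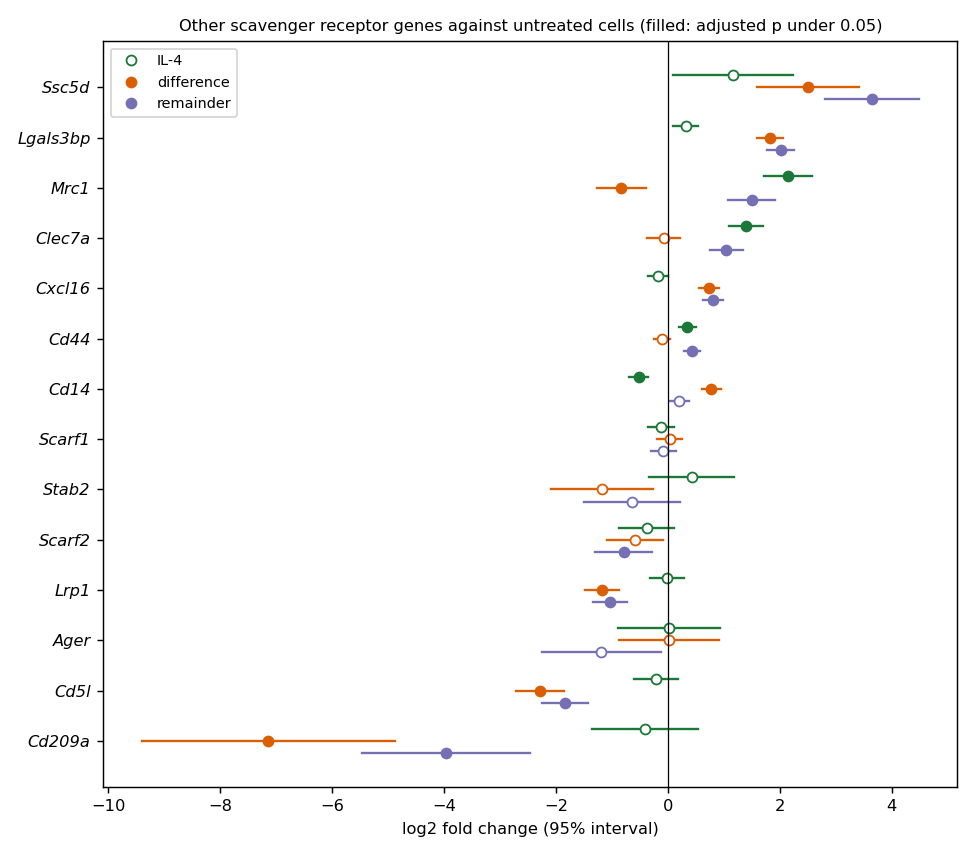
Log2 fold change (horizontal axis, with 95% interval) against untreated cells of the 14 tested genes for other scavenger receptors, with IL-4, difference and remainder in colours, 3 mice each, filled where the adjusted p was under 0.05. *Mrc1* lies at 2.14 with IL-4, 1.5 in the remainder and -0.83 in the difference, where the value of *Cd209a* rests on libraries at 0 counts and is no measure of size.

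The genes around these receptors were counted from further lists. Over all tested genes, 3.4% were called with IL-4, 23.2% in the difference and 25.3% in the remainder, each against untreated cells. The lists were chosen with earlier results known, so nothing is read from their counts. Of 18 genes for lipid uptake and efflux, IL-4 raised 3, among them *Lpl* (log2 0.76) and *Abcg1* (0.59), and lowered 0. In the difference 6 were higher and 6 lower, and in the remainder 8 and 4, with *Acsl1* at 2.33 and 2.09 and the lipase gene *Lpl* at -1.55 and -1.32. Of 11 tested genes for haem handling, 1 was higher and 0 lower with IL-4. In the difference 2 were higher and 4 lower, and in the remainder 2 and 5. *Hp*, the gene of the haptoglobin that *Cd163* binds, rose by log2 5.26 and 4.0 in these libraries in which *Cd163* fell, and the iron exporter gene *Slc40a1* fell (-1.22 and -2.01). Of 16 tested genes for the uptake of dying cells, 2 were higher and 0 lower with IL-4. In the difference 7 were lower and 0 higher, and in the remainder 3 were lower and 1 higher. Among 16 regulators of receptor genes, *Pparg*, whose product binds oxidized fatty acids and is a known activator of *Cd36*, rose with IL-4 (log2 0.92) and fell in the difference (-1.85) and the remainder (-0.98). *Pparg* and *Cd36* were both higher in the remainder than in the difference (0.87 and 0.70). In the remainder against untreated cells, *Cd36* was not called (log2 -0.13), unlike *Pparg*. Of the 16 regulators, 3 were higher and 1 lower with IL-4, 3 and 5 in the difference and 2 and 4 in the remainder. The part of *Pparg* in the values of *Cd36* was not tested.

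The genes most like each of the 3 members with the widest ranges were found by Pearson's r of log2 CPM over the 12 libraries among 8861 genes with at least 8 CPM in the highest group. For *Marco* these were *Aldoc* (r = 0.98), *Aoah* (0.97) and *Rbpms* (0.97), for *Cd163* *Elmo1* (0.98), *Tmem81* (0.98) and *Alcam* (0.98), and for *Cd36* *Cd300ld* (0.96), *Cblb* (0.95) and *Mcm6* (0.95). The libraries form 4 groups of 3 mice, so these values mostly describe the group means.

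All libraries carried macrophage transcripts, with *Csf1r* at 4333 to 6153 CPM and *Adgre1* at 2139 to 3227 CPM. Of the treatment checks, *Retnla* had 781, 535 and 618 counts with IL-4 and at most 1 in every other library, and *Arg1* had 402, 97 and 114 counts in the remainder, 26, 26 and 19 with IL-4 and at most 2 elsewhere. *Axin2* had 11, 9 and 13 counts in the remainder and at most 5 elsewhere, the difference included. It was below the count filter and was not tested. The paper reports more *Axin2* by qPCR after Wnt3a treatment. Some of the receptors are also made by endothelial cells. Of 10 endothelial markers 3 were tested. The summed level of all 10 was 288 to 309 CPM in untreated cells and 339 to 428 with IL-4. It was 276 to 348 in the difference and 331 to 443 in the remainder. Such a sum can rest on few of the genes. *Emcn*, *Cldn5* and *Sox17* were at 0 in all untreated, difference and remainder libraries. In the IL-4 group each of the 10 markers, these among them, had reads. *Flt1* rose with IL-4 and fell in the difference (log2 3.33 and -2.27), as *Cd36* did, and there the other 2 tested markers were not called. In the remainder 1 of the 3 was higher and 2 were not called, while *Cd36* was not called (log2 -0.13). The part of *Flt1* in the result was not tested. Of 8 tested neutrophil markers, 0 were called with IL-4. In the difference 1 was higher and 1 lower, and in the remainder 2 were higher and 4 lower. Their median log2 fold change was 0.31 with IL-4, -0.28 in the difference and -0.56 in the remainder. The summed level of all 10 listed was 237 to 287 CPM in untreated cells and 242 to 289 with IL-4. It was 318 to 342 in the difference and 318 to 339 in the remainder, and few genes can carry it. Of the 10 markers, *Ly6g* was at 0 in the untreated libraries. The part of these markers in the results was not tested.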

How the data were processed

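RNA from 12 BMDM samples (4 treatments of the same 3 mice) was sequenced as single reads. To make the deposited counts, the authors used Trimmomatic 0.36 for trimming, STAR 2.6.0 for alignment to mm10 and HTSeq 0.11.1 for counting per gene, without normalization. The methods name UCSC genes and no strand setting, and the rows of the table are Ensembl identifiers (48058 of 48526 had a symbol). Column totals were 13342492 to 17113982 in untreated and IL-4 samples, 44051201 to 51905621 with Wnt3a and 29879207 to 34452244 with Wnt3a+IL-4. The last 2 groups share reads and were resolved into difference and remainder. No value was used to assign these to a treatment.

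The 12421 genes that reached 10 counts in 3 or more libraries entered edgeR 4.0.16 under R 4.3.3 (TMM, quasi-likelihood test, all 4 groups in a single fit, no block) with Benjamini-Hochberg adjustment at 0.05. CPM are TMM-normalized, and levels per kilobase use the union of GENCODE exons. The members and all lists were chosen with earlier results of these data known. Text names all members, at most 4 called genes of each list and comparison by size of log2 fold change, *Retnla*, *Arg1* and *Axin2* as checks, and the 3 genes most like each of 3 members. *Cd209a*, *Csf1r*, *Adgre1*, *Emcn*, *Cldn5*, *Sox17* and *Ly6g* were added for their levels. A gene of the lipid list is counted but not reported here by name. Mouse numbers pair the samples, since each mouse gave cells to every group. Deviations of same-mouse libraries from group means correlated at -0.42 to 0.45 over 18 pairs, 6 of them above 0.1. On simulated counts for IL-4 against untreated (12421 genes), 87 of 100 genes changed by log2 1 and 96 of 100 changed by log2 2 were recovered, with 11 false calls. Alternatives were DESeq2 1.42.0, its size factors, library totals, no count filter, 1 CPM in 3 libraries, only the groups compared, stricter thresholds, the mouse as block, each mouse or library left out, and the deposited columns.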

Additional observations from a re-analysis of the deposited data

Results flagged for a closer look

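The IL-4 effect on *Marco* and on *Cd36* differed with and without Wnt3a when the difference was taken as Wnt3a+IL-4, by the interaction term of edgeR's fit. That term was called in 7.33% of all tested genes (910 of 12421). These groups took part in the choice of the genes, so the terms and the counts of mice below only describe these libraries. For *Marco* the interaction was 2.41 on the log2 scale. IL-4 lowered *Marco* without Wnt3a in 3 of 3 mice, while the difference stood above the remainder in 3 of 3. For *Cd36* it was -1.97. IL-4 raised *Cd36* without Wnt3a in 3 of 3 mice, while the difference stood below the remainder in 3 of 3. With the remainder taken as Wnt3a+IL-4, the values were 0.78 and -0.58 and neither passed the threshold with edgeR on the 12421 filtered genes. Without the count filter both did (adjusted p = 0.013 and 0.0039). That setting called 575 of 23413 genes, against 13 of 12421 with the filter. The labels do not tell which assignment holds. *Arg1* had 402, 97 and 114 counts in the remainder and at most 2 in the difference, and *Retnla* at most 1 in both. Of 10 genes of the IL-4 response, 6 were higher and 1 lower in the remainder than in the difference (median log2 1.94). With the difference as Wnt3a+IL-4, 8 of these 10 had a called negative interaction and 0 a positive one (median log2 -4.56). With the remainder as Wnt3a+IL-4, 0 were called (median log2 -0.23). Both terms combine the contrast between the parts with that of IL-4 against untreated cells, so they are no separate support for either assignment. The list was also chosen with earlier results of these data known. By qPCR, the paper reports *Arg1* unaltered by Wnt3a alone and higher with Wnt3a and IL-4 than with IL-4. The parts were not assigned from these values.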

How the results depend on the processing

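Leaving out a mouse or a library gave 2 called receptor genes of 9 with IL-4 in every case, 4 to 5 in the difference and 3 to 7 in the remainder against untreated cells, 0 to 4 between remainder and difference, 4 to 6 and 4 to 5 for difference and remainder against IL-4, and 0 and 2 to 3 for the interaction with the remainder and with the difference as Wnt3a+IL-4. In the remainder, 3 were called without mouse 3, without the untreated library of mouse 3 or without the remainder of mouse 1. Between remainder and difference, 0 were called without mouse 3 and 1 without the difference of mouse 3.

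Requiring an absolute log2 value of 1 or more left 2 genes in the difference and 1 in the remainder against untreated cells, 0 between the parts and 3 each against IL-4. An adjusted p of 0.01 left 3 in the remainder and 1 between the parts. Without a count filter, 5 were called between the parts and 5 in the interaction with the remainder as Wnt3a+IL-4, where DESeq2 called 2 and the deposited columns 2. The deposited columns called 0 between the columns, and in them *Cd36* was lower in Wnt3a+IL-4 than in untreated cells (log2 -0.45, adjusted p = 0.019). Scaling by library totals moved the median of all genes to -0.10 in the difference and -0.13 in the remainder, with 1131 genes higher and 2238 lower (1462 and 1422 with TMM) and 1293 higher and 2342 lower (1687 and 1450). It called 8 receptor genes in the difference, adding *Scarb2*, *Stab1* and *Cd68* as lower (log2 -0.19, -0.28 and -0.21), and 4 in the interaction with the difference as Wnt3a+IL-4, but 2 between the parts (*Colec12* lost), and it lost *Msr1* in the difference against IL-4 (adjusted p = 0.072). With only the groups compared, 4 were called in the remainder against untreated cells (*Msr1* and *Colec12* lost) and 2 between the parts (*Colec12* lost). With the mouse as replicate block, 2, 5, 6, 3, 5 and 5 genes were called in the pairwise comparisons in the order above, and the calls of *Cd163*, *Colec12* and *Stab1* given above changed.

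All values that changed sign were uncalled. Library totals gave -0.037 for *Scarb1* with IL-4, -0.040 for *Colec12* in the difference, -0.037 for *Cd68* in the remainder and -0.016 for *Scarb2* in the difference against IL-4. The deposited columns gave -0.13 for *Colec12*, -0.041 for *Cd68*, -0.018 for *Scarb2* and 0.0014 for *Stab1* (remainder against IL-4). For the interactions they gave -0.11 for *Cd68* (remainder as Wnt3a+IL-4), and -0.17 for *Msr1* and -0.074 for *Colec12* (difference as Wnt3a+IL-4). With a mouse or a library left out, values ranged from -0.11 to 0.12 for *Scarb1* and -0.063 to 0.25 for *Cd163* with IL-4, from -0.042 to 0.22 for *Colec12* in the difference, and from -0.37 to 0.065 for *Cd36* and -0.065 to 0.20 for *Cd68* in the remainder, all against untreated cells. They ranged from -0.16 to 0.045 for *Scarb1* between the parts and from -0.015 to 0.065 for *Scarb2* in the difference against IL-4. In the interaction with the remainder as Wnt3a+IL-4 they ranged from -0.17 to 0.02 for *Scarb1*, -0.0025 to 0.076 for *Scarb2* and -0.015 to 0.14 for *Cd68*, and with the difference from -0.28 to 0.35 for *Msr1* and -0.16 to 0.21 for *Scarb1*.

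Counts of called genes (over 12421 tested, 23413 without a filter, 13368 in the columns) also moved by over 1.5 times. For IL-4, 422 became 812 without a filter, 227 at 0.01, 133 at a log2 of 1 and 708 in the columns. In the difference and the remainder, 2884 and 3137 became 1687 and 1960 at 0.01 and 842 and 917 at a log2 of 1. Between the parts, 652 became 1454, 279 and 184 at the first 3 of these settings, 422 with only the groups compared (11917 tested) and 0 in the columns. Against IL-4, 2519 and 2521 became 1659 and 1575 at 0.01, and 835 and 733 at a log2 of 1. The interactions, 13 and 910, became 575 and 1505 without a filter, 0 and 472 at 0.01, 142 and 311 in the columns, 165 with DESeq2 (first) and 423 at a log2 of 1 (second). With a mouse or a library left out (12092 to 12406 tested), counts in this order ranged from 77 to 532, 1220 to 3188, 1375 to 3807, 97 to 1188, 1208 to 2805, 1043 to 3052, 0 to 43 and 265 to 1459, each lowest without mouse 3 (0 also in 3 other fits).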

Other observations

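Of the 10 macrophage markers, IL-4 raised 0 and lowered 2 (*Aif1* by log2 -0.77 and *Cd14* by -0.51), while 5 were higher and 0 lower in the difference and 3 were higher and 0 lower in the remainder. *Fcgr1*, a receptor for IgG, had log2 values of 1.07 and 0.60 in these groups and *Itgam*, an integrin chain, 1.07 and 0.90. *Scarb1* and *Cd163* fell in the libraries in which these genes rose. Of 10 genes of the IL-4 response, 0 were lower in any group, while 8 were higher in the remainder, 5 with IL-4 and 3 in the difference. Of 4 tested dendritic cell markers, IL-4 raised 1, and 1 was higher and 1 lower in the difference and 3 higher and 1 lower in the remainder. Of 5 tested stromal markers, 0 were called with IL-4, and 1 was higher and 1 lower in each of the 2 parts. Of 10 listed Wnt target genes, 2 had the counts to be tested. *Rnf43* was lower in the difference (log2 -1.28) and the remainder (-1.34), and the other was not called. All 10 together had 8.22 to 9.65 CPM in untreated cells, 7.82 to 8.51 in the difference and 7.58 to 7.87 in the remainder. At these low levels no Wnt response is read from the list. The 1 tested lymphocyte marker was not called.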
